A study of Homo sapiens with 4 samples.

Results

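Growth factor receptors of the PDGF, MET, AXL and VEGF axes and their ligands were followed in U87 MG cells after knockdown of PELP1. The set was chosen by gene symbol as receptor tyrosine kinases and ligands known in glioma, with earlier results of these data known. All 10 symbols (PDGFRA, PDGFRB, PDGFA, PDGFB, PDGFC, PDGFD, MET, HGF, AXL and KDR) were found among 23228 gene symbols in the count files. With PELP1 siRNA, PDGFC, PDGFA, KDR and AXL were lower than with control siRNA, and PDGFRA was higher. PDGFRB, MET and HGF did not pass the threshold. PDGFD was too low to test and PDGFB was listed at 0.

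U87 MG is an established human glioblastoma line. One group was transfected with PELP1 siRNA and the other with control siRNA, both with oligofectamine, and each was sequenced as 2 libraries of total RNA from 72 hours after transfection. Both groups carry everything the line itself carries, and all values come from this single line. A small interfering RNA (siRNA) directs cleavage of an mRNA that pairs with it, and PELP1 encodes a scaffold protein of nuclear receptor and chromatin complexes.

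Receptor tyrosine kinases are membrane proteins that come together when a ligand binds, phosphorylate one another and recruit adaptors that start the RAS, PI3K and STAT pathways. PDGF-A and PDGF-B chains are secreted active, while PDGF-C and PDGF-D chains need a protease to remove an inhibitory CUB domain. PDGFRA, KIT and KDR are neighbours on chromosome 4, a segment that is amplified in some glioblastomas, and MET and AXL are studied in invasion and drug resistance of these tumours.

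Each library held 18670162 to 22858988 counts over genes. The PELP1 siRNA libraries differed more from each other (chi-square per gene 7.07) than the control libraries did (2.09), against 29.6 to 31.5 for pairs of libraries from different groups. PELP1 itself had 15.2 and 17.7 CPM in the PELP1 siRNA libraries, against 74.0 and 78.1 CPM in the control libraries, where CPM is a gene's share of all counts of its library, scaled so that libraries of unlike composition can be compared. That is a log2 fold change of -2.21 (SE 0.0965, adjusted p = 8.32e-14, edgeR). The source of the duplicates is not stated, so p-values measure only the spread between these libraries, which may be technical. Of 8 astrocyte and glioma markers, 5 were tested, of which VIM, CD44 and NES were lower and SLC1A3 higher with PELP1 siRNA. That is 60.0% lower and 20.0% higher, beside 15.0% and 12.9% of all tested genes. VIM was the most abundant, with 5610 and 6056 CPM of VIM in PELP1 siRNA libraries and 7021 and 7140 CPM in control libraries. The astrocyte transporter gene SLC1A3 had 70.5 and 66.0 CPM with PELP1 siRNA and 47.0 and 50.4 CPM with control siRNA, while AQP4 and ALDH1L1 were at 0 in all 4 libraries. GFAP had only 1.22 and 1.84 CPM with PELP1 siRNA and 1.44 and 1.29 CPM with control siRNA.

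Stretches of the 3′ untranslated regions are shown for a pair of 7-base words, CTCAGTT and GCCTTGA, to show which of these mRNAs hold them. The words were picked on fold changes from these same libraries, so their presence is a description of the sequences and supports nothing about the changes. A search of the sense strand of each canonical 3′ untranslated region (GENCODE v44lift37, GRCh37) found a word in 5 of the 10 genes. Of the 4 genes that fell, 2 carry a word (AXL once, PDGFC 3 times) and 2 carry none (PDGFA and KDR). PDGFRA, which was higher, carries 1, and PDGFRB, which did not pass the threshold, carries both words at 4 places. The untested PDGFD carries GCCTTGA once, and MET, HGF and PDGFB carry neither. Each line gives 1 word in capitals with 9 bases on either side, read 5′ to 3′ on the strand of the gene.
AXL, chr19:41767175-41767199, plus strand: actctcacaCTCAGTTgtgactaac
PDGFC, chr4:157684137-157684161, minus strand: atccttaatCTCAGTTgtttgcttc
PDGFC, chr4:157682343-157682367, minus strand: atatggttcCTCAGTTccagacata
PDGFC, chr4:157681864-157681888, minus strand: gtagcagtcCTCAGTTgccagtcgg
PDGFRA, chr4:55162732-55162756, plus strand: gcctggatcCTCAGTTctcaaatgt
PDGFRB, chr5:149495055-149495079, minus strand: cccagggaaCTCAGTTttcccatat
PDGFRB, chr5:149494381-149494405, minus strand: tctctgggcCTCAGTTtccccttca
PDGFRB, chr5:149494800-149494824, minus strand: tagggcctaGCCTTGAgcagtgttg
PDGFRB, chr5:149494130-149494154, minus strand: gctgcacagGCCTTGActtagagtg
PDGFD, chr11:103778875-103778899, minus strand: tttcttattGCCTTGAaagttaaaa

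For comparison, CTCAGTT stood in 17.4%, GCCTTGA in 11.9% and either word in 25.4% of the 11048 tested genes with a canonical 3′ untranslated region. Among regions within 20% of the length of that of PDGFC (2636 bases) CTCAGTT stood in 22.2%, within 20% of that of AXL (1862 bases) in 17.9%, and within 20% of that of PDGFRA (2973 bases) in 24.9%. Around the length of the PDGFRB region (1924 bases) the share was 18.0% for CTCAGTT and 12.5% for GCCTTGA. Around that of PDGFD (2505 bases) it was 14.8% for GCCTTGA. A match says only that these letters are there.

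Counts were divided by the length of each gene's annotated exons to give RPKM, the CPM per kilobase, so that genes could be set beside each other. AXL stood highest with 150 ± 2.34 RPKM in PELP1 siRNA libraries and 184 ± 0.937 RPKM in control libraries (SD, n = 2), above 99.1% of the 11376 tested genes with a matched length. MET followed with 86.5 ± 9.72 RPKM with PELP1 siRNA and 95.7 ± 0.709 RPKM with control siRNA, above 97.4% of those genes. PDGFC had 9.83 ± 0.991 RPKM with PELP1 siRNA and 14.5 ± 0.379 RPKM with control siRNA, and PDGFRB had 7.09 and 6.90 RPKM with PELP1 siRNA and 6.53 ± 0.316 RPKM with control siRNA. HGF, with 3.37 ± 0.245 RPKM with PELP1 siRNA and 3.35 ± 0.123 RPKM with control siRNA, came next. PDGFA and KDR shared a level, at 1.51 ± 0.255 and 1.52 ± 0.0406 RPKM with PELP1 siRNA and 2.17 ± 0.0955 and 2.15 ± 0.119 RPKM with control siRNA, and did not differ beyond their spread. PDGFRA was lowest of the tested genes, at 0.403 ± 0.0392 RPKM with PELP1 siRNA and 0.252 ± 0.0718 RPKM with control siRNA. Every other pair of neighbours in this order differed by more than the spread between the libraries of either group. The order and the ratios that follow also rest on the exon lengths used. The annotation that the reads were counted with is not given and may differ. The beta receptor stood 16.5 and 18.4 times as high per length as the alpha receptor in the PELP1 siRNA libraries, and 22.3 and 31.4 times as high in the control libraries.

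**Figure D1:**
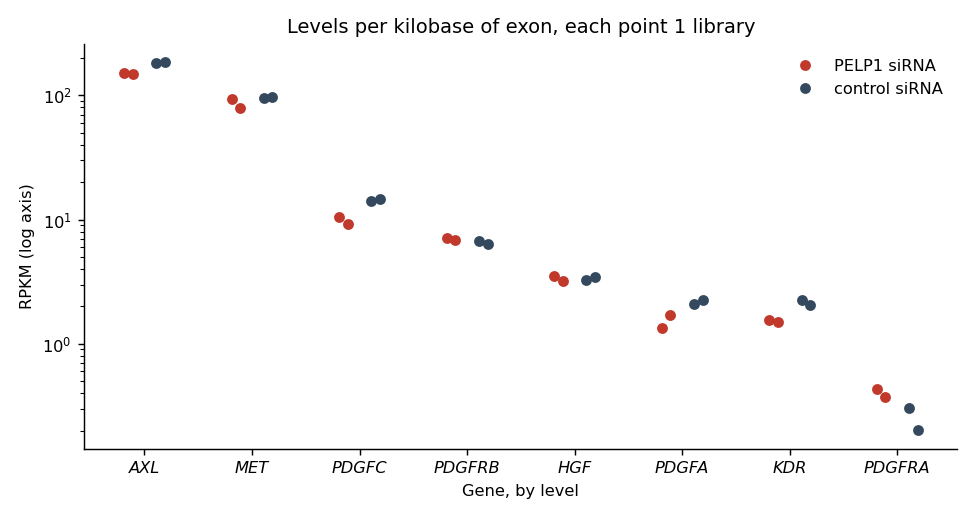
Levels of the 8 tested genes in RPKM on a log axis, each point 1 library, with PELP1 siRNA libraries left of control siRNA libraries. AXL and MET lie above 79 RPKM in every library, PDGFA and KDR overlap each other in each group, and PDGFRA lies below 0.5 RPKM throughout.

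The groups were compared over all genes to see which mRNAs differ once PELP1 is low. Over 13234 tested genes, 12.9% were called higher and 15.0% lower with PELP1 siRNA at an adjusted p under 0.05 (edgeR's quasi-likelihood test with Benjamini-Hochberg adjustment over all genes tested). These are 1712 higher and 1980 lower genes, and scaling by total counts in place of TMM gives 2272 higher and 1597 lower. Of the 8 receptors and ligands tested, 1 was called higher and 4 lower. Their median log2 fold change was -0.22, against 0.00088 over all tested genes. The set was chosen with earlier results of these data known, so these values only describe it. Both libraries of PELP1 siRNA lay below both of control siRNA for 5 of the 8 genes and above them for 2, where 32.3% of all tested genes lay below and 32.0% above. Only HGF had overlapping groups. The count of falls was 2 without control library 1 (PDGFA and PDGFC) and 2 without control library 2 (KDR and PDGFC). In bulk RNA, fewer cells that express a gene and less of its RNA per cell cannot be told apart.

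**Figure D2:**
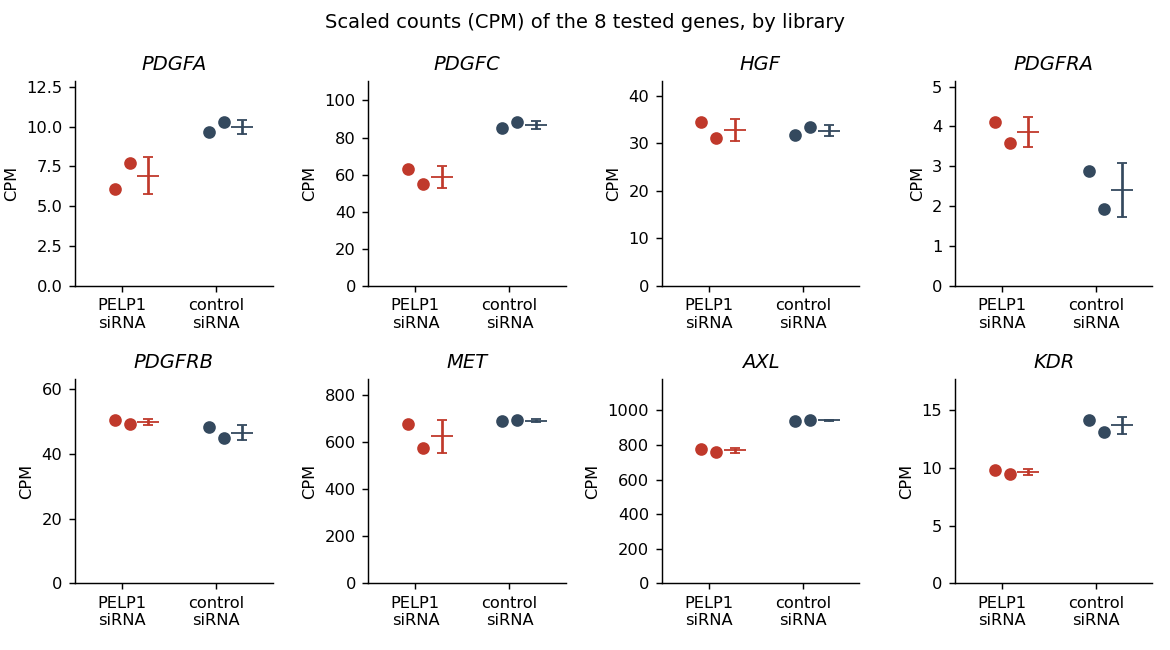
CPM of the 8 tested genes, with each dot 1 library and the bar beside it the mean ± SD of the 2 libraries, PELP1 siRNA on the left and control siRNA on the right of each panel; the vertical axes start at 0 and differ between genes. PDGFA, PDGFC, AXL and KDR are lower and PDGFRA higher with PELP1 siRNA, and 1 of the PELP1 siRNA libraries of MET lies close to the control libraries.

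Among the ligands, both PDGF chains that could be tested fell and HGF did not pass the threshold. PDGFC, the PDGF chain that signals mainly through the alpha receptor, had 63.2 and 54.7 CPM in the PELP1 siRNA libraries and 85.2 and 88.4 CPM in the control libraries, from 1244, 1039, 1651 and 1980 counts. The groups did not overlap and the mean with PELP1 siRNA was 67.9% of the control mean. The log2 fold change of PDGFC was -0.56 (SE 0.0813, 95% interval -0.73 to -0.39, adjusted p = 1.57e-05, edgeR), and among the 4 receptors and ligands that fell it was the only one that passed the threshold in each of the 13 alternative settings tried. Its fall was smaller without PELP1 siRNA library 2 (-0.45) and larger without library 1 (-0.66).

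PDGFA, the chain whose homodimer binds the alpha receptor, had 6.09 and 7.75 CPM with PELP1 siRNA and 9.65 and 10.3 CPM with control siRNA, from 120, 147, 187 and 230 counts. The groups were apart, though the PELP1 siRNA libraries differed from each other by more than the control libraries did. The log2 fold change was -0.53 (SE 0.146, 95% interval -0.83 to -0.23, adjusted p = 0.00857, edgeR). It was -0.36 without PELP1 siRNA library 1 and -0.71 without library 2. The call was lost without control library 2 (adjusted p = 0.112) and with DESeq2's Wald test (adjusted p = 0.0651).

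The other PDGF chains had few counts or none. PDGFB, which binds both PDGF receptors, was listed at 0 counts in all 4 libraries. Whether the authors' annotation let reads be counted for it cannot be told from the files. If it did, a count of 0 allows up to 3 counts, or 0.152 and 0.158 CPM in the PELP1 siRNA libraries and 0.155 and 0.134 CPM in the control libraries. PDGFD, whose active dimer binds the beta receptor, had 4 and 0 counts in the PELP1 siRNA libraries and 2 and 4 counts in the control libraries. These are too few to give a direction, since 4 counts alone carry an exact 95% Poisson interval of 1.09 to 10.2. Such intervals and limits cover counting error only.

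HGF, the ligand of MET, was present in the same cells at 34.5 and 31.1 CPM with PELP1 siRNA and 31.8 and 33.5 CPM with control siRNA. The groups overlapped. The log2 fold change was 0.0065, with a 95% interval of -0.19 to 0.20 (adjusted p = 0.966, edgeR), and the mean with PELP1 siRNA was 32.8 ± 2.39 CPM against 32.7 ± 1.20 CPM with control siRNA (SD, n = 2 each).

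The PDGF receptors differed in level and in outcome. PDGFRA, which binds the A, B and C chains, had 4.11 and 3.58 CPM in the PELP1 siRNA libraries, from 81 and 68 counts, and 2.89 and 1.92 CPM in the control libraries, from 56 and 43 counts. It was higher in both PELP1 siRNA libraries, with a log2 fold change of 0.69 (SE 0.222, 95% interval 0.23 to 1.16, adjusted p = 0.0218, edgeR). This rise was not past the threshold without control library 2 (0.41, adjusted p = 0.391), without PELP1 siRNA library 1 (0.60, adjusted p = 0.0523) or with DESeq2's Wald test (adjusted p = 0.159). Without control library 1 it was 1.00. Another annotated gene on the same strand, ENSG00000282278, shares 16.1% of the exon bases of PDGFRA, so reads there could have been set aside as ambiguous or counted for either.

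PDGFRB, the receptor of the B and D chains and a marker of pericytes, had 50.6 and 49.3 CPM with PELP1 siRNA and 48.2 and 45.0 CPM with control siRNA. The PELP1 siRNA libraries lay just above the control libraries, but the log2 fold change of 0.10 (95% interval -0.074 to 0.28) did not pass the threshold (adjusted p = 0.402, edgeR). It did not pass in any of the 13 alternative settings. Other genes used as markers of pericytes and mural cells summed to 249 and 241 CPM with PELP1 siRNA and 360 and 365 CPM with control siRNA. Of the 7 tested, 3 fell (CSPG4, MCAM and NOTCH3), or 42.9%, beside 15.0% of all tested genes. RGS5, KCNJ8, ABCC9 and ACTA2 did not pass the threshold, at 96.0%, 134%, 87.1% and 103% of their control means. Most of the difference in the sum came from CSPG4 and MCAM. Their means were 66.8 and 71.5 CPM with PELP1 siRNA and 115 and 123 CPM with control siRNA. Of this list DES had at most 0.211 CPM in any library and none was at 0 in all 4. The part of this list in the PDGFRB value was not tested.

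MET, the HGF receptor, had 675 and 575 CPM in the PELP1 siRNA libraries and 688 and 695 CPM in the control libraries, from 13290, 10920, 13333 and 15571 counts. The control libraries were nearly equal, PELP1 siRNA library 1 was close to them and library 2 was lower. The log2 fold change was -0.15 (SE 0.0682, 95% interval -0.29 to -0.0044, adjusted p = 0.117, edgeR). The value moved with single libraries: it was -0.26 (adjusted p = 3.27e-10) without PELP1 siRNA library 1 and -0.031 (adjusted p = 0.569) without PELP1 siRNA library 2. At 10920 to 15571 counts a library, counting error is small beside that difference between libraries.

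AXL, the receptor of the vitamin K-dependent ligand GAS6, was the most abundant gene of the set and fell. It had 777 and 760 CPM with PELP1 siRNA and 939 and 946 CPM with control siRNA, from 15305, 14424, 18201 and 21187 counts. The libraries of each group lay close together and the groups were apart, with a PELP1 siRNA mean at 81.6% of the control mean. The log2 fold change was -0.29 (SE 0.0588, 95% interval -0.42 to -0.17, adjusted p = 5.73e-04, edgeR). The size was steady, from -0.31 to -0.25 over the 13 alternative settings, but leaving out a control library raised the adjusted p to 0.0565 (library 1) or 0.0651 (library 2). A gene annotated on the opposite strand, ENSG00000269652, shares 1.31% of the exon bases of AXL.

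KDR, the main signalling receptor for VEGF-A and best known in endothelial cells, was present at a low level and fell. It had 9.85 and 9.48 CPM with PELP1 siRNA and 14.2 and 13.1 CPM with control siRNA, from 194, 180, 275 and 294 counts. The groups were apart and the PELP1 siRNA mean was 70.8% of the control mean, with a log2 fold change of -0.50 (SE 0.123, 95% interval -0.75 to -0.24, adjusted p = 0.00380, edgeR). The call was lost without control library 1 (-0.44, adjusted p = 0.103). Of 8 endothelial markers CLDN5 was at 0 in all libraries and CDH5 did not exceed 0.263 CPM. TEK had 2.84 and 2.11 CPM with PELP1 siRNA and 1.86 and 1.87 CPM with control siRNA, without overlap, and PECAM1 had 20 and 11 counts with PELP1 siRNA and 14 and 28 counts with control siRNA. The list summed to 4.47 and 3.58 CPM with PELP1 siRNA and 3.04 and 3.97 CPM with control siRNA. None of the 3 tested (TEK, PECAM1 and VWF) was called, and their part in the KDR value was not tested.

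KDR and PDGFRA lie 780 kb apart on chromosome 4 (GRCh37, KDR at 55944648 to 55991762 on the minus strand and PDGFRA at 55095447 to 55164412 on the plus strand), and one fell while the other rose. KIT, which lies between them and encodes the receptor of stem cell factor, had 2 and 4 counts in the PELP1 siRNA libraries and 2 and 1 counts in the control libraries. The difference between the KDR and PDGFRA changes was not tested. The set's other genes are spread over chromosomes 4 (PDGFC), 5 (PDGFRB), 7 (PDGFA, HGF and MET), 11 (PDGFD), 19 (AXL) and 22 (PDGFB).

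**Figure D3:**
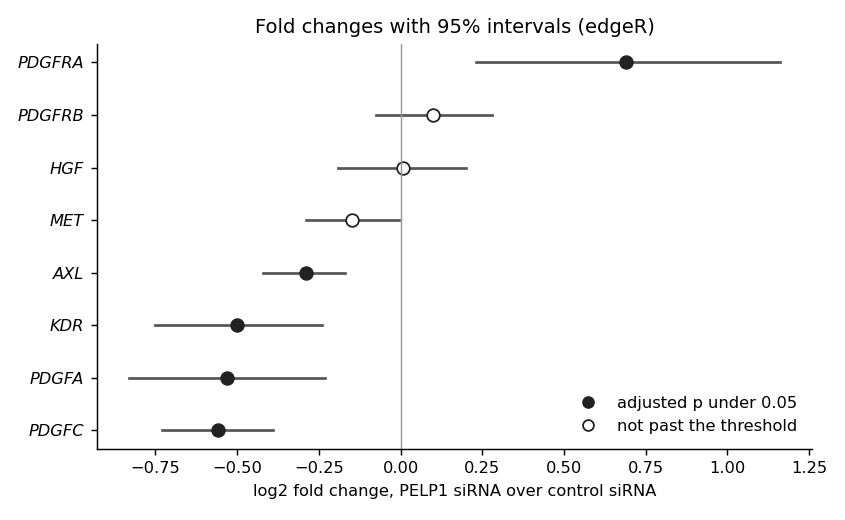
Log2 fold changes (PELP1 siRNA over control siRNA) of the 8 tested genes with 95% intervals from the edgeR fit, n = 2 libraries a group. Filled points passed an adjusted p under 0.05: PDGFRA at 0.69 on the right, and AXL, KDR, PDGFA and PDGFC between -0.29 and -0.56 on the left.

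**Figure D4:**
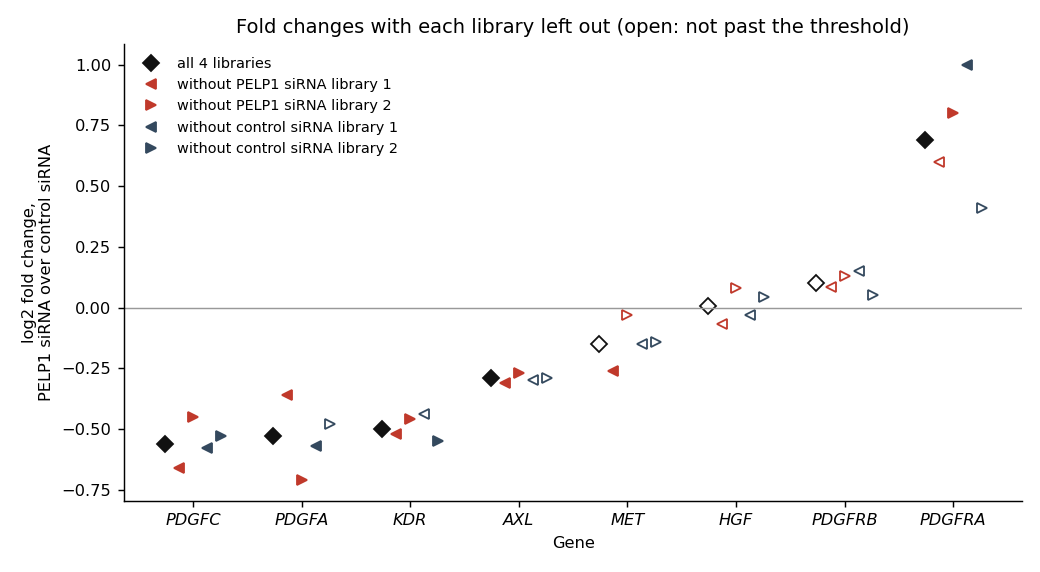
Log2 fold changes of the same genes from all 4 libraries and with each library left out, filled where the adjusted p was under 0.05. PDGFC stays filled throughout, MET is filled at -0.26 only without PELP1 siRNA library 1, and PDGFRA ranges from 0.41 to 1.00.

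Of 9 other genes of the VEGF axis, its ligands, receptors and co-receptors, 6 were tested, of which 3 were lower and 1 higher. That is 50.0% lower and 16.7% higher, beside 15.0% and 12.9% of all tested genes. VEGFA, the main angiogenic ligand of KDR, had 304 and 306 CPM with PELP1 siRNA and 468 and 458 CPM with control siRNA (log2 fold change -0.60, adjusted p = 9.23e-08, edgeR). NRP2, a co-receptor for VEGF-C and semaphorins, had 149 and 141 CPM with PELP1 siRNA and 237 and 242 CPM with control siRNA (-0.73, adjusted p = 1.47e-08). PGF, a VEGF relative that binds FLT1 and was named after its value was seen, was also lower (-0.72, adjusted p = 0.00142, edgeR). The co-receptor NRP1 had 818 and 747 CPM with PELP1 siRNA and 815 and 818 CPM with control siRNA. Neither NRP1 (-0.062, adjusted p = 0.490, edgeR) nor the ligand VEGFB (0.054, adjusted p = 0.675, edgeR) passed the threshold. The NRP1 value moved with single libraries, to -0.13 without PELP1 siRNA library 1 and 0.0072 without PELP1 siRNA library 2. VEGFC, the lymphatic ligand, was the one that rose, with 112 and 118 CPM with PELP1 siRNA and 89.5 and 89.8 CPM with control siRNA (0.36, adjusted p = 4.56e-04, and 0.0513 without control library 1). Of the other VEGF receptors, FLT1 was listed at 0 in all libraries, and FLT4 had 1 count in control library 2 and 0 elsewhere. As for PDGFB, whether the authors' annotation let reads be counted for FLT1 cannot be told.

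AXL's relatives did not pass the threshold. TYRO3 had 91.5 and 92.5 CPM with PELP1 siRNA and 82.6 and 87.4 CPM with control siRNA (0.11, adjusted p = 0.260). The ligand GAS6 had 41.9 and 41.6 CPM with PELP1 siRNA and 48.3 and 47.8 CPM with control siRNA (-0.20, adjusted p = 0.0776, and 0.0193 and 0.0307 without PELP1 siRNA library 1 or 2). PROS1, the other ligand of the family, was at 0.15 (adjusted p = 0.172), with 0.042 (adjusted p = 0.604) without PELP1 siRNA library 1 and 0.27 (adjusted p = 2.14e-05) without library 2, and MERTK had 4 and 1 counts with PELP1 siRNA and 5 and 1 counts with control siRNA. Of 9 genes of the MET family and of the class III receptor kinases, to which the PDGF receptors belong, 5 were tested. Of these, 2 were lower (40.0%, beside 15.0% of all tested genes) and 0 higher (beside 12.9%). CSF1, the ligand of the macrophage receptor CSF1R, was lower by 0.82 on the log2 scale, with 98.5 and 101 CPM with PELP1 siRNA and 178 and 174 CPM with control siRNA (adjusted p = 3.08e-09). MST1, the ligand of MST1R, had 22 and 30 counts with PELP1 siRNA and 59 and 50 counts with control siRNA (-0.96, adjusted p = 0.0101), and near-identical copies of MST1 make its count uncertain. That call was lost without control library 1 (adjusted p = 0.185), without PELP1 siRNA library 1 (0.0572) and with DESeq2's Wald test (0.100).

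Of the tested proteases that release active PDGF and HGF, 1 fell and 1 rose, and the others did not pass the threshold. Of 12 genes for ligand activation and its inhibitors, 6 were tested. Of these, 1 was higher (16.7%) and 2 lower (33.3%), beside 12.9% and 15.0% of all tested genes. PLAU, urokinase, which can activate PDGF-D, had 170 and 183 CPM with PELP1 siRNA and 414 and 416 CPM with control siRNA (-1.23, adjusted p = 1.57e-12). PLAT, the tissue plasminogen activator that cleaves PDGF-C, did not pass the threshold, at 16.1 and 15.3 CPM with PELP1 siRNA and 17.4 and 15.1 CPM with control siRNA (-0.043, adjusted p = 0.810). The proprotein convertase PCSK5 rose by 0.83 (adjusted p = 4.71e-04, edgeR). The convertases FURIN (-0.10, adjusted p = 0.310, edgeR) and PCSK7 (0.020, adjusted p = 0.892, edgeR) did not pass the threshold. The HGF activators HPN, HGFAC and ST14 and the inhibitors SPINT1 and SPINT2 had at most 7 counts in any library.

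Of 25 adaptors and effectors, all tested, 3 were higher, 4 lower and 18 not past the threshold. As shares of the list, both were close to the 12.9% higher and 15.0% lower among all tested genes. The genes named next are single members of a list that did not stand out by its count of calls. STAT3, a transcription factor activated by several of these receptors, rose to 185 and 178 CPM with PELP1 siRNA, against 127 and 126 CPM with control siRNA (0.52, adjusted p = 2.55e-06). The SRC family kinase YES1 was higher by 0.26 (adjusted p = 0.0136) and FYN, of the same family, lower by 0.34 (adjusted p = 7.57e-04). The YES1 value was 0.13 without PELP1 siRNA library 1 and 0.38 without library 2. Its call was lost without control library 1 or 2 (adjusted p = 0.259 and 0.125), as was that of FYN (0.0552 and 0.0662). The insulin receptor substrate IRS1 was lower by 0.40 (adjusted p = 8.85e-05).

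Of 21 tested genes that switch receptors off or remove them, 1 was higher (4.76%) and 5 lower (23.8%), beside 12.9% and 15.0% of all tested genes. LRP1, a large endocytic receptor that associates with PDGFRB, had 540 and 626 CPM with PELP1 siRNA and 909 and 812 CPM with control siRNA (-0.56, adjusted p = 2.47e-06). The adaptor SH2B3, an inhibitor of cytokine receptor signalling, was lower by 0.41 (adjusted p = 1.28e-05). LRIG1, which promotes degradation of receptor kinases, was at the threshold (0.20, adjusted p = 0.0496) and missed it in 8 of 13 alternative settings, with adjusted p up to 0.398. Among 11 tested receptor kinases of other families, 2 were lower: ROS1 (-1.20, adjusted p = 6.39e-05), from 2.69 and 2.11 CPM with PELP1 siRNA and 5.36 and 5.67 CPM with control siRNA, and FGFR1 (-0.29, adjusted p = 0.00131, and 0.0789 and 0.110 without control library 1 or 2). Those 2 lower kinases are 18.2% of the 11 tested, and 0 were higher. Over all these lists together, each gene counted once, 6 of 77 tested genes were higher (7.79%) and 18 lower (23.4%). Among all tested genes the shares were 12.9% and 15.0%. The median log2 fold change of the 77 genes was -0.086. The lists, too, were chosen with earlier results of these data known, so these shares only describe them.

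**Figure D5:**
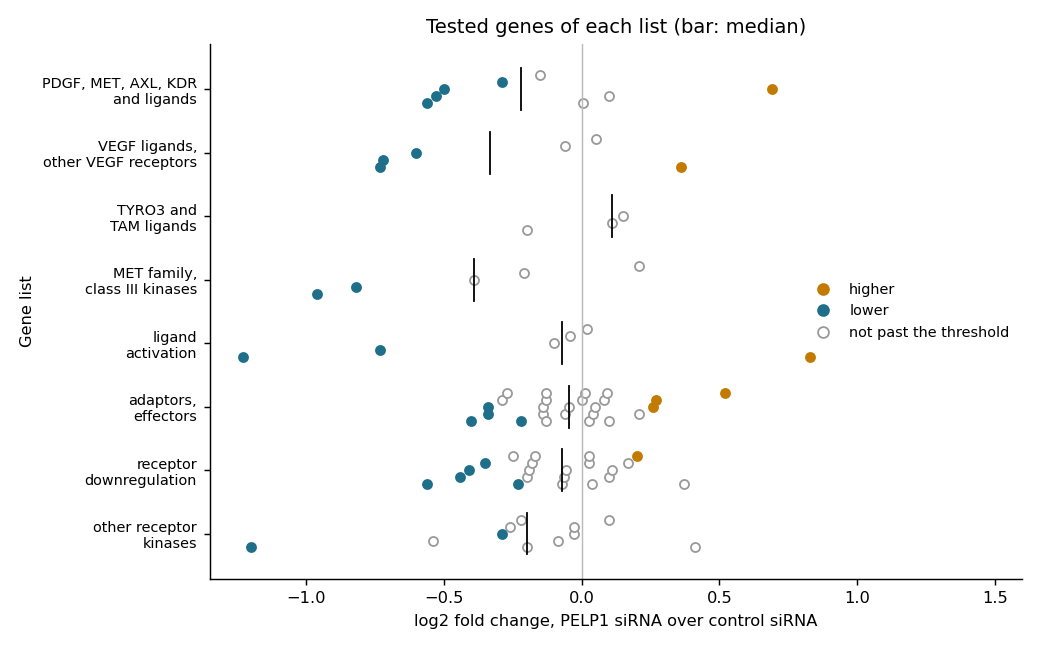
Log2 fold changes (PELP1 siRNA over control siRNA) of the tested genes of each list, with filled points past an adjusted p under 0.05 and a bar at the median of each list. The receptors and ligands of the set have a median of -0.22, the VEGF list one of -0.33 and the adaptors one of -0.047.

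The profiles most like those of PDGFC and AXL, the falls with the smallest adjusted p, were sought over the 4 libraries among 10593 other genes of at least 5 CPM, by the Euclidean distance between mean-centred log2 CPM values. Nearest to PDGFC were PARM1 (0.0136), SEPT11 (0.0293) and NBPF1 (0.0330), the last from a family of near-identical copies, with log2 fold changes of -0.57, -0.53 and -0.55. Nearest to AXL were ANKLE2 (0.0123), EPDR1 (0.0200) and NUDT5 (0.0201), with log2 fold changes of -0.28 for each. These 4 libraries in 2 groups leave the fold change as most of what such a profile holds.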

How the data were processed

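Total RNA of U87 cells was made into TruSeq Total RNA libraries and sequenced from one end for 50 bp, per the labels' protocols. CASAVA 1.8.2, TopHat2 2.0.8b and HTSeq are named, with build hg19 (GRCh37), in the submitters' processing notes. Not given in the sources used here: the version of HTSeq, whether it used strand, its annotation, and the siRNAs. The values that the authors deposited are raw counts of reads for each gene symbol, with no scaling. The counter's 5 summary lines (36.0 to 37.6% of each column) were left out. Reads that fit several places or genes are lost by such counting.

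Of 23228 symbols, 13234 passed filterByExpr (minimum count 10, minimum total 15) and were fitted with edgeR 4.0.16 in R 4.3.3 (TMM scaling, robust quasi-likelihood, group as the only term, Benjamini-Hochberg adjustment over all genes tested). CPM values are TMM-scaled. RPKM used the union of GENCODE v44lift37 exons, matched for 82.4% of symbols. Alternatives were DESeq2 1.42.0, limma-voom (limma 3.58.1), other scalings and filters, a fit that is not robust, a replicate block, and each library left out. The rule for named genes takes the 10 members, PELP1, the 2 smallest adjusted p-values in each direction of each list and the nearest profiles of 2 members. One gene that the rule takes is not reported here. PGF, the untested genes and genes named beside a rule's choice were picked after their values were seen. Members and lists were chosen with earlier results of these data known.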

Additional observations from a re-analysis of the deposited data

How the results depend on the processing

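Over all genes, 1712 higher and 1980 lower calls became 1133 higher and 1427 lower with DESeq2's Wald test, and leaving out 1 library gave 523 to 2724 higher and 943 to 2804 lower. Among the 10 receptors and ligands, the 1 higher call (PDGFRA) was 0 with a stricter filter (5 CPM in 2 libraries), which leaves PDGFRA untested, and 0 with DESeq2's Wald test; leaving out 1 library gave 0 to 1 higher and 2 to 5 lower. Among the genes of the other lists, the 6 higher and 18 lower calls ranged over 2 to 18 and 10 to 32. HGF, not called in any setting, changed sign without a filter (-0.0031), without control library 1 (-0.031) and without PELP1 siRNA library 1 (-0.068, the lowest of a range up to 0.082 with 1 library left out). NRP1, at -0.062, ranged from -0.13 to 0.0072 with 1 library left out; the cause was not tested. Scaling moved the median of all genes by at most 0.049 (total counts). PELP1 and PDGFC kept their call and direction in all 13 alternatives. The replicate numbers are shared between groups, but nothing says they pair the libraries: deviations of same-numbered libraries correlated at -0.031 over 13234 genes. With the replicate block 1613 genes were higher and 1968 lower, and the receptors and ligands called were the same 1 and 4. PDGFD and PDGFRA have few counts, so their precision is limited. With 1 library left out, the spread of that group is taken from the other.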
